A study of Rattus norvegicus with 6 samples.

Results

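The genes described here encode 8 soluble proteins and 2 membrane proteins of the lysosome. They are the cathepsins Ctsb, Ctsd, Ctsl, Ctsz and Ctsh, the acid lipase Lipa, the saposin precursor Psap, the hexosaminidase subunit Hexa, and the lysosome-associated membrane proteins Lamp1 and Lamp2. They were chosen by gene symbol, and all 10 were found, each at 1 locus, among the 33022 loci of the expression table. Each passed the filter on low values, which kept 10201 named loci whose estimate had succeeded and whose mean over the 6 libraries reached 1 FPKM (fragments per kilobase of transcript, scaled to the number of mapped fragments).

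RNA was sequenced from liver of male obesity-prone Sprague Dawley rats fed a control diet (CD) or a Western diet (WD), a diet rich in fat and sucrose, for 2 weeks. All rats were fasted for 16 h and then refed their own diet for 1 h. For each diet there was 1 library of total RNA, 1 of the light gradient fraction (mRNAs with up to 3 ribosomes) and 1 of the heavy fraction (mRNAs with 4 or more ribosomes), and each held RNA pooled from 3 rats. With 1 library per condition no spread between animals could be measured and no test was made.

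Lysosomes are acidic organelles in which proteins, lipids and glycans delivered by endocytosis and autophagy are broken down. Most of their soluble enzymes are made on ribosomes at the endoplasmic reticulum and carried from the Golgi by mannose 6-phosphate receptors, and a proton pump, the V-ATPase, acidifies the lumen. In liver, lysosomes supply amino acids during fasting and release cholesterol and fatty acids from lipoproteins and lipid droplets. The transcription factor Tfeb binds the CLEAR element, a motif built on the core CACGTG, near many lysosomal genes.

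The number of fragments behind each value was inferred from the FPKM values, of which 1 fragment is worth a fixed amount per gene and library. Judged by the FPKM that 1 fragment is worth, the WD light library was the deepest, with 2.34 times the depth of CD heavy, the shallowest. Summed over loci with inferred fragments, WD light was also the highest, at 516669, but CD light the lowest, at 243864. The median locus had between 8 and 23 fragments per library. The members had between 3 fragments (Ctsz) and 737 fragments (Ctsl). Intervals below are 95% intervals for counting error of these fragments and describe the libraries, not the diets. They are narrower for genes with more fragments. The share of all loci with intervals off 1 is not given here, so counts of members with such intervals have no background. The bounds deposited with the FPKM values are far wider, from 8.35 to 708 FPKM for Ctsl in CD total RNA, and those of CD and WD overlapped in 30 of 30 pairs of member and RNA. Hepatocyte markers summed to between 43094 and 129500 FPKM in each library. The light libraries differed in globin RNA: Hba1 was at 18.0 FPKM in CD and 163 FPKM in WD, and Hbb at 13.9 and 242 FPKM. Alas2, the heme synthesis enzyme of red cell precursors and the other erythroid marker found, went the other way, at 19.7 and 7.18 FPKM.

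Liver expressed the 10 genes over a wide range, led by the cathepsin L gene. In CD total RNA Ctsl, a cysteine endopeptidase (Rnor_6.0 chr17:1872847-1879279), was at 358 FPKM, above all other members. Psap (chr20:29831313-29856875), whose product is cut into the saposins that help sphingolipid hydrolases reach their substrates, was at 221 FPKM, and Ctsh (chr8:97439160-97458287), an aminopeptidase, at 211 FPKM. These 2 levels did not differ beyond their counting intervals. Ctsb (chr15:46316740-46337612), a cysteine protease that also trims dipeptides, Ctsd (chr1:215541541-215553451), the main aspartic protease of the lysosome, and Lamp2 (chrX:124722627-124766044) followed at 125, 110.4 and 101 FPKM, with overlapping intervals between neighbours. Lipa (chr1:252816526-252849904), which cleaves cholesteryl esters and triglycerides, was at 57.7 FPKM, Lamp1 (chr16:81689589-81706561) at 49.3 FPKM and Hexa (chr8:64325434-64350773), a subunit of the enzyme that removes a sugar from GM2 ganglioside, at 42.4 FPKM. Ctsz (chr3:172527106-172537877), a carboxypeptidase, was lowest at 10.6 FPKM, which rested on 7 fragments. The order in WD total RNA was the same except that Ctsh and Psap, whose intervals again overlapped, traded places. The placental cathepsin genes Cts7, Cts8, Ctsm, Ctsr, Ctsq, Cts8l1 and Ctsj, which lie on chromosome 17 with Ctsl, were listed at 0 FPKM in all 6 libraries.

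**Figure D1:**
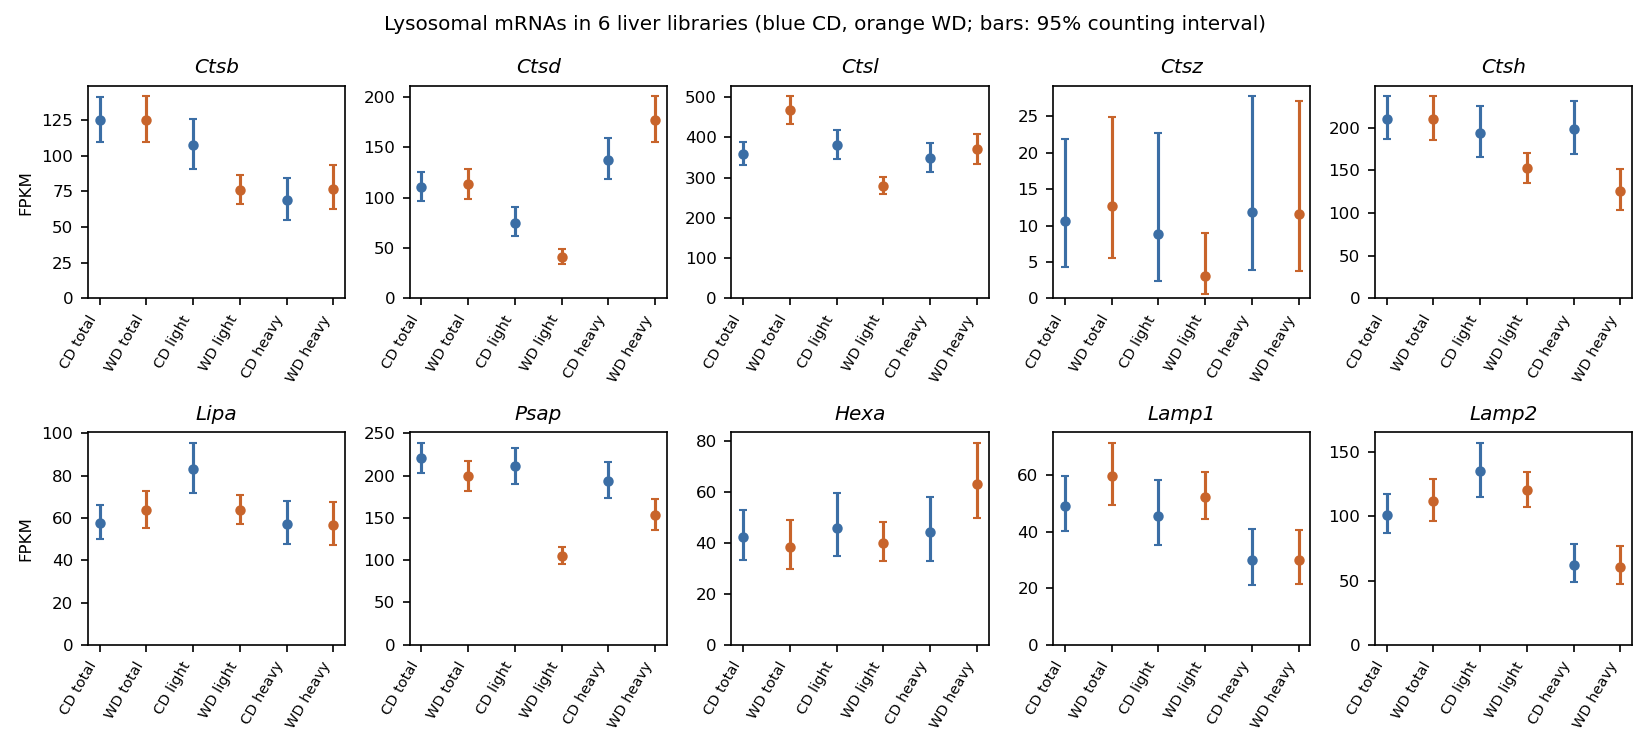
FPKM (linear axis from 0, 1 panel per gene) in each of the 6 libraries, CD in blue and WD in orange, with exact 95% Poisson intervals of the inferred fragments as bars. In the light fraction the bars of CD and WD are apart for Ctsb, Ctsd, Ctsl, Lipa and Psap, as with 75.2 FPKM in CD and 41.0 FPKM in WD for Ctsd.

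In total RNA the question was whether the abundance of these mRNAs differed between the diets, and for 9 of the 10 genes the WD/CD ratio could not be told from 1 at this depth. Ctsl was the exception, at 358 FPKM in CD and 467 FPKM in WD, a ratio of 1.30 (interval 1.17 to 1.46). Ctsb was nearly the same in both libraries, at 125.1 and 125.0 FPKM, as was Ctsh at 211 and 209.8 FPKM and Ctsd at 110.4 and 113 FPKM. Among the lipid and glycan genes, Psap was at 221 FPKM in CD and 199 FPKM in WD, a ratio of 0.902 (0.800 to 1.02), Lipa at 57.7 and 63.7 FPKM and Hexa at 42.4 and 38.6 FPKM. Both membrane protein genes were higher in WD, Lamp1 at 49.3 and 59.8 FPKM, with a ratio of 1.21 (0.920 to 1.60), and Lamp2 at 101 and 112 FPKM. Ctsz, at 10.6 and 12.7 FPKM, rested on 7 and 8 fragments.

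A WD/CD ratio of at least 1.5 or at most 0.75 was used to call a locus higher or lower, the thresholds that the study set on CD relative to WD for ribosome density. No member passed either threshold in total RNA, where 17.7% of all loci compared passed the upper and 22.7% the lower one. Of the 4069 loci averaging 10 FPKM or more, called well-expressed below, which hold 9 of the members, 25% did. The members' median change was 0.09 on the log2 scale of (FPKM + 0.1), beside 0.02 over all loci.

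In the light fraction, in the values as deposited, 6 of the 8 soluble proteins' mRNAs had WD/CD intervals below 1. Psap was at 211 FPKM in CD light and 105 FPKM in WD light, a ratio of 0.499 (0.434 to 0.574). Ctsd was at 75.2 and 41.0 FPKM, a ratio of 0.546 (0.419 to 0.713). These 2 genes, one for an activator of sphingolipid breakdown and one for a protease, had the lowest ratios among the well-counted members. Ctsb was at 107 and 75.7 FPKM, with a ratio of 0.706 (0.570 to 0.875). Ctsl was at 381 and 279 FPKM, with a ratio of 0.731 (0.647 to 0.826). The interval lay below 1 for both cysteine endopeptidases, although Ctsl was higher in WD total RNA. Lipa, at 83.1 and 63.7 FPKM, had a ratio of 0.767 (0.640 to 0.920), and Ctsh, at 194 and 153 FPKM, one of 0.787 (0.650 to 0.955). For Hexa (45.9 and 40.0 FPKM, ratio 0.871, 0.627 to 1.22) the difference was within counting error. The membrane proteins also did not differ beyond it: Lamp2 was at 135 and 120.2 FPKM (ratio 0.892, 0.736 to 1.08) and Lamp1 at 45.7 and 52.3 FPKM (1.14, 0.850 to 1.55). Ctsz, at 8.87 and 3.06 FPKM, had 4 and 3 fragments, which left its ratio of 0.345 between 0.0505 and 2.04.

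Ctsb, Ctsd, Ctsl, Ctsz and Psap, 5 of the 10 members, were at or below 0.75 in the light fraction, where 26.8% of all loci and 27.2% of well-expressed loci were, and none was at or above 1.5, as 25.9% of loci were. The members' median was −0.42 (log2), beside 0.02 over all loci. These differences depend on how the light libraries are set to one another. With the thresholds set on CD/WD, 3 members (Ctsd, Ctsz and Psap) were called lower, beside 20.6% of loci. Rescaled to the same sum over all loci, many of them short loci without a symbol, 4 of the 6 genes with intervals below 1 turned, Ctsb to 0.18, Ctsl to 0.23, Lipa to 0.30 and Ctsh to 0.34 (log2), and Ctsd and Psap stayed lower. The members' median turned to 0.27, and the median of all loci moved to 0.69. Rescaled to the same number of inferred fragments, the members' median was −0.38 and that of all loci 0.05. Relative to the median locus, 9 of the 10 members were lower in WD light, with Lamp1 the exception, and a common scaling factor leaves that count as it is.

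In the heavy fraction, which holds mRNAs with many ribosomes, the members went both ways. Ctsd was at 137 FPKM in CD heavy and 177 FPKM in WD heavy, a ratio of 1.29 (1.06 to 1.57). Hexa was at 44.2 and 63.4 FPKM, a ratio of 1.44 whose interval (0.993 to 2.09) just included 1. In the light fraction Ctsd was lower in WD, and Hexa did not differ beyond counting error. Ctsh, at 199 and 126 FPKM, had a ratio of 0.633 (0.492 to 0.812) and Psap, at 194 and 153 FPKM, one of 0.789 (0.670 to 0.929), and these 2 were lower in both fractions. The other 6 members did not differ beyond counting error: Ctsb was at 68.7 and 77.0 FPKM, Ctsl at 349 and 370.2 FPKM, Lipa at 57.2 and 56.8 FPKM, Ctsz at 11.9 and 11.6 FPKM, Lamp1 at 29.9 and 30.0 FPKM, and Lamp2 at 62.2 and 60.7 FPKM. Ctsh alone passed a threshold, the lower one, which 25.8% of all loci passed, and none passed the upper one, which 21.7% passed. The members' median was −0.0050 (log2), beside −0.02 over all loci. With the thresholds set on CD/WD, Hexa also passed the upper one, as 26.9% of loci did. Rescaled to the same sum over all loci, Psap turned to 0.040 (log2) and Ctsh was no longer at or below 0.75. There 2 members were at or above 1.5, while the median of all loci moved to 0.34. The share of loci past that threshold after rescaling is not given.

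**Figure D2:**
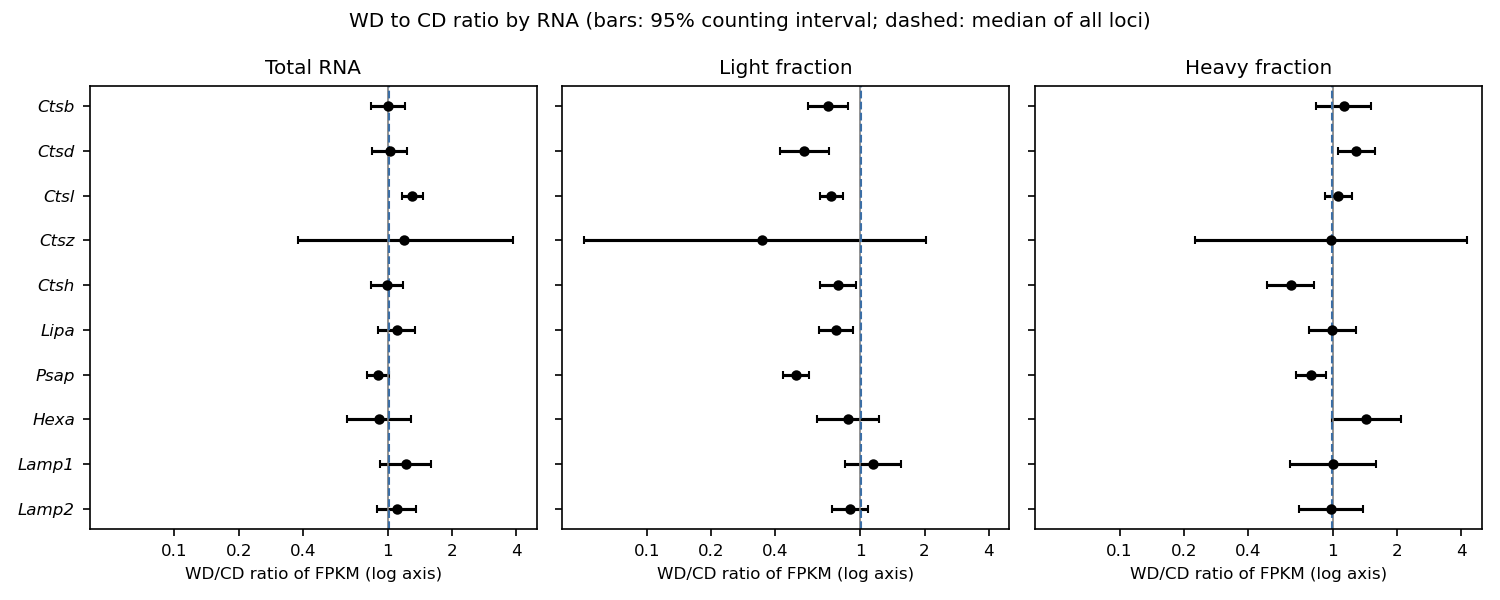
WD/CD ratio of FPKM (log axis) of each of the 10 genes in total RNA, the light and the heavy fraction, with 95% counting intervals as bars, a grey line at 1 and a dashed line at the median of all loci. In the light fraction the intervals of 6 genes lie below 1, from 0.499 for Psap to 0.787 for Ctsh.

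The ratio of heavy to light FPKM, called ribosome density by the study, asks how far an mRNA sits towards many ribosomes. In CD the ratio was highest for Ctsd, at 1.83, and lowest for Lamp2, at 0.461. Ctsb, at 0.640, Lamp1, at 0.654, and Lipa, at 0.688, followed. Ctsz was at 1.34, Ctsh at 1.02, Hexa at 0.961, Psap at 0.920 and Ctsl at 0.914. Ctsd was thus the only member at or above 1.5, as were 32.9% of all loci, and Lamp2, Lamp1, Ctsb and Lipa were at or below 0.75, as were 36.6%. These calls depend on the scaling of the libraries. Rescaled to the same sum over all loci, 6 members were at or above 1.5 and 0 at or below 0.75 in CD, and Ctsb, Lipa and Lamp1 turned. The median of all loci moved to 0.84 (log2), itself past the upper threshold. The share of loci past it after rescaling is not given, so these counts have no background. In WD the ratio was 4.31 for Ctsd, 3.80 for Ctsz and 1.58 for Hexa, which passed the upper threshold with 31.4% of all loci. Psap was at 1.46, Ctsl at 1.33, Ctsb at 1.02, Lipa at 0.891 and Ctsh at 0.824. Lamp1, at 0.574, and Lamp2, at 0.505, stayed under the lower threshold, with 38.5% of all loci. Across the 10 members the log2 ratios of the diets had a Pearson's r of 0.904 and a Spearman's rho of 0.770, and across the 4069 well-expressed loci 0.454 and 0.730. Extreme ratios weigh on Pearson's r more than on ranks. Of the well-expressed loci 354 had a log2 ratio outside ±3, and no member did. Genes are not replicates, and both axes share the length and base composition of each gene.

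The WD ratio divided by the CD ratio gives the change of ribosome density. This change was above 1 for 8 of the 10 members, beside 48.3% of all loci. With heavy over total RNA in place of heavy over light, 7 of the 10 were lower in WD. The heavy/light change was 2.36 (interval 1.69 to 3.29) for Ctsd and 1.59 (1.10 to 2.31) for Ctsb. For Psap the change was 1.58 (1.27 to 1.97) and for Ctsl 1.45 (1.20 to 1.76). These 4 genes, 3 of them cathepsins, had intervals above 1. All 4 were lower in the light fraction of WD, with intervals below 1, and they differed in the heavy fraction, which was lower in WD for Psap, higher for Ctsd and within counting error for Ctsb and Ctsl. Hexa, at 1.65 (0.993 to 2.74), and Lipa, at 1.29 (0.944 to 1.78), were within counting error of 1, as was Ctsz at 2.83 (0.281 to 30.3), whose fraction values rest on 3 to 5 fragments each. Lamp2, at 1.09 (0.735 to 1.63), Lamp1, at 0.876 (0.500 to 1.54), and Ctsh, at 0.804 (0.585 to 1.11), were too.

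Ctsb, Ctsd, Ctsz, Psap and Hexa, 5 of 10 members, had a density change of at least 1.5, beside 27.7% of all loci and 23.3% of well-expressed loci, and none had one of at most 0.75, beside 36.1% and 27.6%. The members' median was 0.60 (log2), beside −0.02 over all loci. With the thresholds set on CD/WD, 6 members were called higher in WD, these 5 and Ctsl, beside 32.9% of loci. Rescaled to the same sum over all loci, 2 members were at or above 1.5 and 2 at or below 0.75. The medians were then 0.30 for the members and −0.32 for all loci. When heavy values were divided by those of total RNA, the members' median turned to −0.18. Ctsl turned to −0.30, Ctsz to −0.29, Psap to −0.19 and Lipa to −0.15, and 7 of the 10 were lower in WD. Shares of loci are not given for the rescaled counts or for heavy over total RNA. Hexa, at 0.66, Ctsd, at 0.33, and Ctsb, at 0.17, remained higher. The light libraries also differed in depth and in globin RNA. Their part in the result was not tested.

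**Figure D3:**
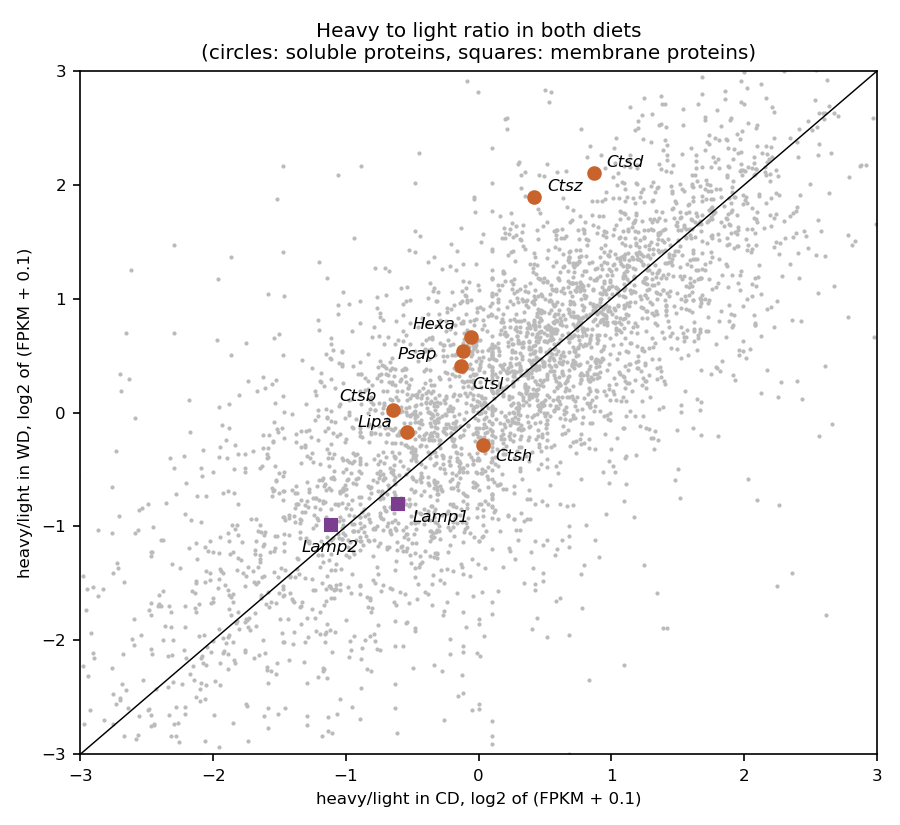
Heavy/light ratio in WD (y) against that in CD (x), both as log2 of (FPKM + 0.1), for the 10 members (coloured) and 4069 well-expressed loci (grey; 354 lie outside the range of ±3). The line marks equal ratios, and 8 members lie above it, Ctsd and Ctsz farthest, while Lamp1 and Ctsh lie below. Of all loci compared, 48.3% had a higher ratio in WD.

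A comparison within a library needs no scaling between libraries. The 8 soluble proteins had 1502 fragments against 227 for Lamp1 and Lamp2 together in CD light, or 6.62 per Lamp fragment, and 2189 against 475 in WD light, or 4.61. The WD/CD ratio of these was 0.696 (0.584 to 0.829). In total RNA the same quantity was 7.94 in CD and 7.39 in WD, a ratio of 0.930 (0.780 to 1.11), and in the heavy fraction 12.06 and 12.02, a ratio of 0.996 (0.749 to 1.33). The interval thus lay below 1 in the light fraction and included 1 for the other two, and the difference between fractions was not tested. The split into soluble and membrane proteins was made with the values of the members known. The other soluble hydrolases had a light median of 0.10 (log2; 22 of 39 higher in WD, 17 lower), and the membrane proteins with Lamp1 and Lamp2 among them one of −0.19 (3 of 13 higher, 10 lower), so the order of the 2 groups was opposite there.

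Promoter sequences were read for 7 of the 10 genes from RefSeq (GRCr8, 250 bases before and 50 after the start). The core CACGTG, which reads the same on both strands, was found in 2 of the 7, Ctsd and Lamp1, beside 6.65% of 27457 promoters, 9.59% of the 7208 promoters of loci compared here and 16 of 64 promoters (25%) of the other lysosomal genes listed below. Ctsd had 2 matches and Lamp1 had 5. For each gene the 2 nearest the start are shown, to show the core and its flanks. All are on the minus strand, with the core in capitals. They lie at chr1:206968814-206968843 and chr1:206968961-206968990 for Ctsd, with the first base of the core at −10 and −157 from the start, and at chr16:83075084-83075113 and chr16:83075111-83075140 for Lamp1, at −38 and −65.
Ctsd proximal: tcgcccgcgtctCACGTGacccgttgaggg
Ctsd distal: tctttcttccccCACGTGactcgcatccag
Lamp1 proximal: cgcggcactgttCACGTGacaggcgctgcc
Lamp1 distal: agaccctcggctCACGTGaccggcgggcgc
Proximal and distal order only the windows shown for each gene. All 4 windows carry an A after the core, and 3 of them, all but the distal Ctsd one, a T before it. The Lamp1 cores not shown differ: at −183 a T stands before and a G after. At −167 a C stands before and an A after, and at −150 a G before and an A after. No core was in the windows of Ctsl, Ctsz, Ctsh, Lipa and Lamp2, which says only that these letters are not there. Ctsd and Lamp1, which hold the core, had total RNA ratios within counting error of 1. Of the members without it, Ctsz, Ctsh, Lipa and Lamp2 did too, and Ctsl did not. Tfeb itself was listed in total RNA at 6.49 FPKM for CD and 5.09 FPKM for WD, on 16 and 12 fragments. Tfe3, another listed transcription factor, was at 5.75 and 8.42 FPKM, on 10 and 14 fragments. Both differences were within counting error, and a link between the core, these factors and the values was not tested.

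The other lysosomal genes, 75 of 80 listed that passed the filter, stood near the median locus as a group in their WD/CD changes. Their density change had a median of −0.08 (log2), beside 0.60 for the members, with 35 genes higher and 40 lower, of which 16 were at or above 1.5 and 20 at or below 0.75. In total RNA their median was −0.04 and in the light fraction −0.06, where 12 genes passed the upper and 23 the lower threshold. Their heavy/light ratio stood above the median locus, with medians of 0.42 in CD and 0.38 in WD, beside 0.01 and 0 over all loci. The members' medians were −0.12 in CD and 0.22 in WD. The lists are given in turn, by their medians on the log2 scale.

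The lipid enzymes and transfer proteins, which work beside Psap and Lipa, had a median of −0.58 in the light fraction, with 4 of 7 at or below 0.75. Gm2a, the activator that presents GM2 ganglioside to the enzyme Hexa belongs to, was at 227 FPKM in CD light and 113 FPKM in WD light, beside 195 and 189 FPKM in total RNA and 237 and 185 FPKM in the heavy fraction. Smpd1, acid sphingomyelinase, was lower in WD in all 3 kinds of RNA, at 90.0 and 70.3, 99.5 and 58.3, and 96.5 and 71.3 FPKM. Npc2, which carries cholesterol, was at 54.7 and 45.9, 58.2 and 33.5, and 57.3 and 30.5 FPKM. Its total RNA ratio was within counting error of 1 (0.574 to 1.22), and its intervals in the light and heavy fractions lay below 1. The list's density change had a median of 0.33.

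V-ATPase subunits had a light median of −0.24, with 7 of 15 at or below 0.75, and a density change of 0.28, with 5 at or above 1.5 and 1 at or below 0.75. Atp6v0c, of the pump's membrane ring, was at 182 and 186 FPKM in total RNA, 174 and 129 FPKM in the light and 142 and 137 FPKM in the heavy fraction. Among the well-expressed subunits the density change was highest for Atp6v1e1, at 1.38 (log2), and lowest for Atp6v1g1, at −2.11, both of the outer part of the pump, with 4 to 103 fragments per fraction. The other lysosomal membrane proteins had a light median of −0.24, with 5 of 11 at or below 0.75, among them Laptm4a at 162 and 93.1 FPKM, and a density change of 0.11. Lamp1 and Lamp2 were at 0.19 and −0.16 (log2) there.

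Of the other proteases, all 8 that passed the filter had a heavy/light ratio of at least 1.5 in CD and 6 in WD, with a median density change of −0.24. Cpq, carboxypeptidase Q and the most abundant, was at 28.5 and 26.5 FPKM in the light fraction and 115 and 116 FPKM in the heavy one. Ctsc, an activator of granule proteases in blood cells, had the lowest density change of the well-expressed ones, −0.67. Glycosidases had a density change of −0.08 over 14 genes, with Neu1, a sialidase, at 78.6 and 82.7 FPKM in total RNA. The 6 sulfatases had a median of 0.51 in total RNA and of −0.75 in density change, and Ids, which acts on heparan and dermatan sulfate, rested in total RNA on 10 fragments for CD and 20 for WD, with an interval from 0.934 to 5.00 for its ratio. The 4 phosphatases and nucleases had −1.50, although Rnaset2, an RNase and the only one well expressed, was at 1.02. Sorting factors and transcription factors had 0.09. M6pr, a mannose 6-phosphate receptor, was at 24.9 and 22.0 FPKM in total RNA, and Gga2, an adaptor that loads the receptors into vesicles, at 9.39 and 5.26 FPKM.

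**Figure D4:**
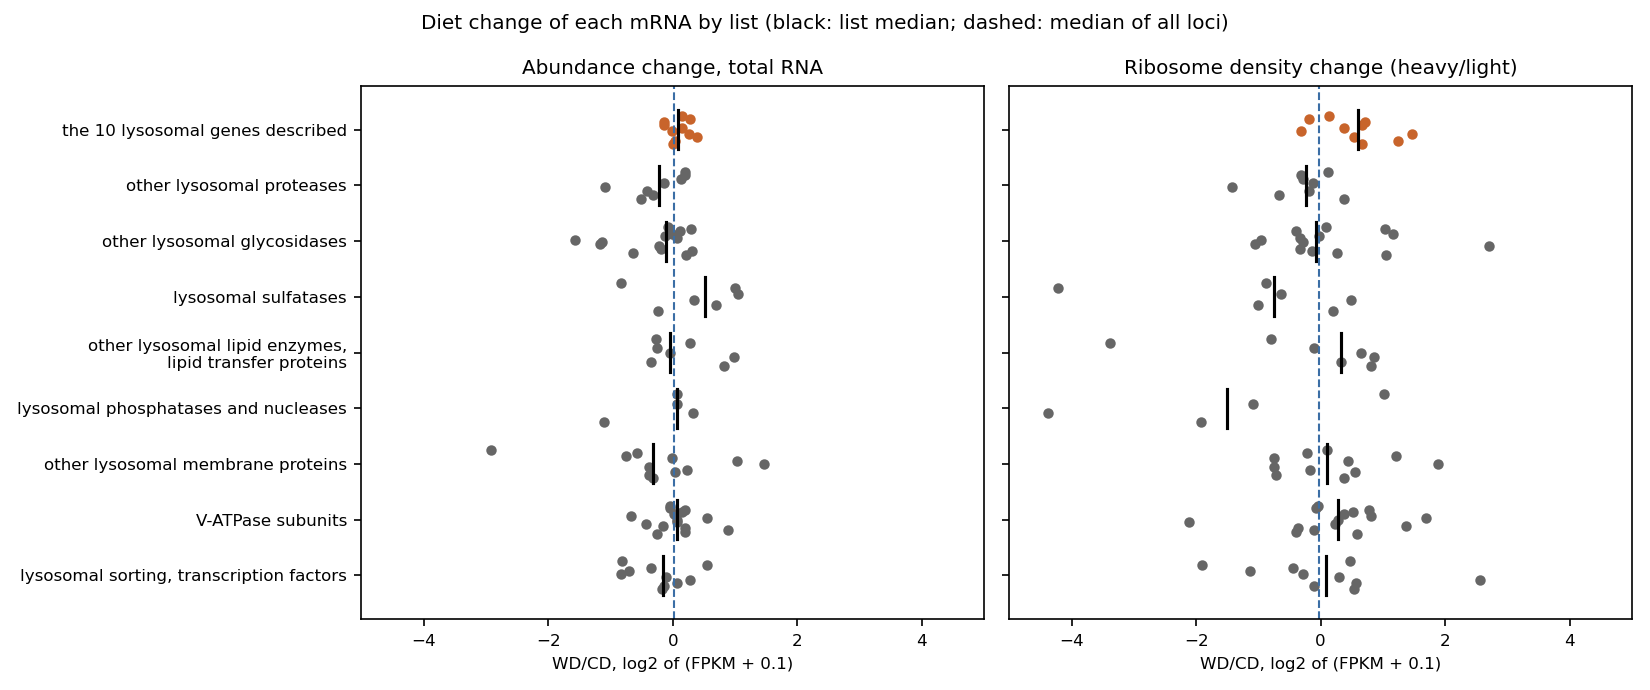
log2 WD/CD change in total RNA and in ribosome density for the members and each list of other lysosomal genes; points are genes, black bars list medians and the dashed line the median of all loci. The members have a median density change of 0.60, the sulfatases one of −0.75 and the phosphatases and nucleases one of −1.50.

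The loci whose profile over the 6 libraries was nearest to the members' mean profile were Raly, Ganab, Atp6v0c, Rpn2 and Abhd2, of 3899 candidates, with root mean square distances of 0.0739 to 0.0953 on the log2 scale. The members themselves lay between 0.0939 (Ctsl) and 0.594 (Ctsd) from it, and the median candidate at 0.574, so that 9 of the 10 members were nearer than that to a profile that is their own mean. Atp6v0c is the only one of the 5 on a lysosomal list.

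Lysosomal genes are also strongly expressed in Kupffer cells, the macrophages of the liver. The summed FPKM of 14 Kupffer cell and macrophage markers was, in the CD and the WD library, 184 and 249.1 for total RNA, 143 and 149.8 for the light and 254 and 318 for the heavy fraction. In total RNA 11 of the 13 markers that passed the filter were higher in WD, 6 at or above 1.5 and 1 at or below 0.75, with a median of 0.38, while Timd4 was at 0 in every library. Sums of sinusoidal endothelial and stellate cell markers were 1.33 and 1.23 times as high in WD total RNA, and those of hepatocytes 0.902 times. The neutrophil genes S100a8 and S100a9 were at 0 throughout. In bulk liver, fewer cells of a type and less RNA per cell cannot be told apart, and the part of these cells in the higher Ctsl value was not tested.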

How the data were processed

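Total RNA and gradient fractions of pooled rat liver were sequenced, 1 library per condition (6 in all). FPKM values with lower and upper bounds were made by the authors, who per the labels and methods used bcl2fastq, TopHat, Cufflinks (2.2.1) and Cuffnorm on Rnor_6.0; the annotation is not given in the sources used here. FPKM depends on the library's composition, so a few abundant RNAs can move every value.

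Named loci whose estimate had succeeded and whose mean reached 1 FPKM were compared as log2(FPKM + 0.1), and a ratio of at least 1.5 or at most 0.75 of WD to CD was a call, the study's thresholds for ribosome density, which it set on CD relative to WD; the turned direction is given where it changes a call. Without replicates no test was run. Fragment numbers were inferred from the FPKM values for 8000 loci (78.4%), as the smallest numbers within 0.01 of whole ones. For 9 members they were whole in all libraries. Ctsh was not whole in WD light (296.2) and was rounded. Intervals at 95% are exact Poisson for levels, Clopper-Pearson for ratios and conditional for density changes, and cover counting error only. The inference was run on data simulated under the same model, which cannot show that the model holds for the real values.

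All 10 members were named. From each other list, which came from general knowledge, the genes with the highest mean and with the highest and lowest changes among those of at least 10 FPKM could be named, with the 5 nearest profiles and any marker. Hba1, Hbb, Tfeb and Tfe3 were named for their function. Members and lists were chosen with earlier results of these data known. Protein sequences and the promoters of Ctsb, Psap and Hexa were not analysed here. Computations used scipy 1.17.1, numpy 2.4.6 and pandas 2.3.3 under Python 3.11.15, and figures matplotlib 3.10.9.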

Additional observations from a re-analysis of the deposited data

Results flagged for a closer look

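For 6 members a ratio lay on opposite sides of 1 in 2 fractions or diets, and no test of the difference could be made with 1 library each. WD/CD was below 1 in the light and above 1 in the heavy fraction for Ctsb, Ctsd, Ctsl and Hexa (4 genes; 45.3% of loci compared had opposite signs), with intervals off 1 on both sides for 1 of them, Ctsd. The heavy/light ratio lay on opposite sides of 1 in CD and WD for Ctsb, Ctsl, Ctsh, Psap and Hexa (5 genes; 25.9% of loci), with intervals off 1 on both sides for 0 of them. Their log2 density changes were 0.67 for Ctsb, 1.24 for Ctsd, 0.54 for Ctsl, −0.31 for Ctsh, 0.66 for Psap and 0.72 for Hexa.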

How the results depend on the processing

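Pseudocounts of 0.01 and 1 FPKM, centring on the median locus, no filter on low values and use of symbols on 1 locus only moved no result by more than its counting error, and requiring a mean of at least 10 FPKM moved only the share of loci past a threshold in total RNA, from 40.3% to 25%. Rescaling each library to the same sum over loci with a symbol moved the members' light median to −0.77 (9 at or below 0.75), that of the other lysosomal lists to −0.41 and that of all loci to −0.29, and gave 5 members at or above 1.5 in WD heavy/light. Rescaling to the sum over all loci or to equal inferred fragments was chosen after seeing the data, and the latter moved none of the medians or counts. The former gave light medians of 0.27 for the members (1 at or above 1.5, 1 at or below 0.75) and 0.62 for the lists; in the heavy fraction 2 members at or above 1.5 and 0 at or below 0.75; heavy/light medians of 0.73 in CD (6 members at or above 1.5, 0 at or below 0.75) and 0.77 in WD (5 and 1), with 1.27 and 0.93 for the lists; and 2 members at or above 1.5 and 2 at or below 0.75 in density change. It reversed Ctsb (0.18), Ctsl (0.23), Lipa (0.30) and Ctsh (0.34) in the light fraction, Psap (0.040) in the heavy one and Ctsb (0.21), Lipa (0.32) and Lamp1 (0.24) in CD heavy/light. Heavy over total RNA gave 0 members at or above 1.5 in CD, a WD median of −0.36 with 4 members at or below 0.75, and a density change with a median of −0.18 (1 at or above 1.5, 1 at or below 0.75), and reversed Ctsl (−0.34), Ctsz (−0.12) and Psap (−0.38) in WD and the density changes of Ctsl (−0.30), Ctsz (−0.29) and Psap (−0.19). Thresholds set on CD/WD, also chosen after seeing the data, gave 3 members called lower in the light fraction, 1 called higher in the heavy one and 6 in density change. All these values are log2 unless counts. For the rescaled values and for heavy over total RNA, no share of loci past a threshold was set beside the counts, here or above. The shares given for the values as deposited are no background for those counts. The cause was not tested. No paired analysis was possible because each condition had 1 library, and no replicate could be left out. The sample titles give the total, light and heavy libraries of a diet the same number range, read here as the same pooled rats. Depth limits Ctsz, with 3 to 8 fragments per library.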

Other observations

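Cst3, the secreted cystatin that inhibits cysteine cathepsins, was at 94.4 FPKM in CD and 119 FPKM in WD total RNA, 78.9 and 51.4 FPKM in the light and 169 and 149 FPKM in the heavy fraction. Its light value was lower in WD, as those of Ctsb and Ctsl were, but the interval of its ratio, 0.417 to 1.03, included 1.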
